A study of Mus musculus with 6 samples.

Results

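The genes described here are 48 genes of ribosome biogenesis and the nucleolus, taken by symbol from an expression table of 13743 entries. All 48 were present, none was listed more than once, and all passed the filter on low values, which kept the 11428 entries whose RPKM averaged 1 or more across libraries. RPKM divides the reads of a gene by its transcript length and by the total mapped in that library. The cells were mouse embryonic stem cells (ESCs) of strain C57/129 that carry the Dgcr8-/- deletion, in all 3 groups alike. Dgcr8 protein is needed to cut primary microRNA transcripts, so such cells lack canonical microRNAs. The groups were cells given a miR-294 mimic (miR-294, 2 libraries), cells given siRNA against Mbd2 (siMbd2, 2 libraries) and control cells (CTR, 2 libraries), all collected 48 h after transfection with DharmaFECT1. The labels give 50 nM as the dose of mimics and siRNAs, and do not state what CTR cells received, which the table calls mock. They do not say whether the 2 libraries of a group came from separate cultures, so the p-values reflect only the spread between these samples, which may be technical.

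Ribosomes are assembled in the nucleolus, where RNA polymerase I transcribes a long precursor rRNA. Small nucleolar ribonucleoprotein particles (snoRNPs) modify this precursor, and assembly factors fold, cut and export it as the small and large subunits. ESCs divide quickly and keep large nucleoli, and MYC is a well-known activator of these genes in growing cells. Mbd2 encodes a protein that binds methylated CpG sites and is part of the repressor complex NuRD.

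The treatment itself is shown first by its sequence, because the part that pairs with mRNA is 7 bases long. The mature miR-294-3p, from RefSeq (GRCm38.p6, chr7:3220691-3220712, plus strand), is printed 5′ to 3′ with the seed, bases 2 to 8, in capitals.
miR-294-3p: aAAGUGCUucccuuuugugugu

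Matches to this seed were counted in 3′ UTRs from GENCODE vM21 (GRCm38), and all 48 genes have one. The 3′ UTR used was the longest stretch after a stop codon in any annotated transcript of the gene, whatever its type. In the 7 genes with a match named below it ran from 1016 bases (Dkc1) to 8379 (Wdr12). A match can thus lie outside the 3′ UTR of a gene's main mRNA, which was not checked. None of the 48 holds the 8-base match, which is the complement of bases 2 to 8 followed by A, while 3.79% of the 10815 tested genes with a 3′ UTR do. The 7-base match to bases 2 to 8, counted only in genes without the 8-base match, occurs in 7 of the 48 genes (14.6%), against 14.7% of the tested genes. The third class is the complement of bases 2 to 7 followed by A, counted in genes with neither match. None of the 48 holds it, while 3.41% of the tested genes do. Any of the 3 classes occurs in 14.6% of the 48 genes and in 21.9% of the tested genes. Dkc1, Ebna1bp2, Imp4, Ncl, Nop58, Polr1a and Wdr12 are the 7 genes, and 1 match each is given below for 6 of them, of the 3 matches in Ncl and 2 in Nop58, as DNA of the mRNA strand, 5′ to 3′, with the match in capitals.
Dkc1 (chrX:75109418-75109424): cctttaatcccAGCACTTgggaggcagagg
Ncl (chr1:86350093-86350099): cctttaaccccAGCACTTgggagggagagg
Nop58 (chr1:59712706-59712712): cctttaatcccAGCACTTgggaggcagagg
Polr1a (chr6:71980938-71980944): cctgtagttccAGCACTTgggaggctgagg
Imp4 (chr1:34446088-34446094): cttgctaccatAGCACTTcactgtcggcct
Wdr12 (chr1:60076775-60076781): cagcagttcagAGCACTTgctgctcctgca
Of the 6 matches printed, those of Dkc1, Ncl, Nop58 and Polr1a are followed by GGGAG. Such letters resemble the rodent B1 repeat, but no repeat annotation was used. All 7 genes with the match were higher with miR-294 (median log2 change 0.77, against 0.69 for the 41 without it). By the test described below, 260 of the 1590 tested genes in the same 7-base class were higher and 769 lower (median -0.21). Of the 8446 tested genes with none of the 3 classes, 2619 were higher and 2816 lower. Among all tested genes, those with any of the 3 site classes had a median of -0.24 and those with none a median of -0.03. A match is a description of letters and does not show a working site.

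The check of the knocked-down gene put every treated library below every CTR library. Mbd2 stood at 11.3 and 12.3 RPKM in miR-294 libraries and 7.33 and 6.34 RPKM in siMbd2 libraries, against 26.8 and 27.9 RPKM in CTR. Dgcr8 stood at 6.66 and 7.14 RPKM with miR-294 and 7.24 and 7.34 with siMbd2, against 7.49 and 8.44 in CTR, and a gene-level value cannot show the deletion. All 10 ESC markers were present at a mean of at least 1 RPKM, summing to 5794 to 5822 RPKM with miR-294 and 6943 to 7297 with siMbd2, against 6007 to 6428 in CTR. Of 8 feeder fibroblast markers 3 are listed, and only Thy1 averaged at least 1 RPKM; the listed markers summed to 3.82 to 4.15 RPKM with miR-294 and 1.27 to 1.39 with siMbd2, against 1.75 to 1.92 in CTR. Of 4 trophectoderm markers 3 are listed (Elf5 is not), and Hand1 and Krt7 averaged at least 1 RPKM; the listed markers summed to 6.96 and 7.0 RPKM with miR-294 and 5.25 and 5.82 with siMbd2, against 3.66 and 3.52 in CTR. Of 6 mesoderm or neural markers 5 are listed, 4 of them at a mean of at least 1 RPKM, summing to 14.4 and 14 RPKM with miR-294 and 23.4 and 22.8 with siMbd2, against 23.3 and 23.9 in CTR. All 6 primitive endoderm markers are listed, with Gata4 alone at a mean of at least 1 RPKM, and summed to 3.30 to 3.32 RPKM with miR-294 and 2.45 to 2.79 with siMbd2, against 3.04 to 3.52 in CTR. The trophectoderm sums follow the same order of groups as the genes described here, and their part in the results was not tested. Replicates of CTR were the least alike, with a median absolute log2 difference of 0.136 over all tested genes, against 0.0626 for miR-294 and 0.0602 for siMbd2. Over the 48 genes these medians were 0.0331 for miR-294, 0.0534 for siMbd2 and 0.116 for CTR. The table holds no counts, so library depth is unknown and counting error could not be computed.

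The 48 genes took a larger share of the summed RPKM with miR-294 than in any other library. Their RPKM values summed to 8216 and 8163 with miR-294 and to 5518 and 5675 with siMbd2, against 4844 and 4945 in CTR. The 3 groups do not overlap, and miR-294 stands furthest from the others. Mean sums were 8189 ± 37.2 with miR-294 and 5597 ± 111 with siMbd2, against 4895 ± 71.3 in CTR (SD, n = 2 each), or 1.67 times CTR for miR-294 and 1.14 times for siMbd2. An exact permutation test of 2 libraries against 2 gave the smallest p it can give, 0.333, in both comparisons (two-sided). As a share of the summed RPKM of the whole table, the genes made up 1.67% in both miR-294 libraries and 1.17% and 1.22% with siMbd2, against 1.08% and 1.15% in CTR. Npm1 and Ncl alone gave 44.0% and 44.1% of the 48 genes' sum with miR-294 and 40.0% and 40.3% with siMbd2, against 40.7% and 43.4% in CTR. RPKM is relative to each library's mapped reads, so a change in total mRNA per cell is not measured, and in bulk samples fewer cells of a type and less RNA per cell cannot be told apart. Myc mRNA moved with these genes, at 26.0 and 26.9 RPKM with miR-294 and 5.71 and 6.91 with siMbd2, against 1.84 and 2.41 in CTR. Mycn, its relative in ESCs, stood at 96.0 and 94.9 RPKM with miR-294 and 71.1 and 70.0 with siMbd2, against 66.3 and 64.6 in CTR. The part of either gene in the changes below was not tested.

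Levels were compared as log2(RPKM + 1) in 1 linear model (limma, 3 groups, Benjamini-Hochberg over all genes tested), and "rose" or "fell" is used of genes with an adjusted p under 0.05. With miR-294, 47 of the 48 genes rose and none fell, with a median log2 change of 0.70 and a range of 0.16 to 1.18. Of all genes tested 27.7% rose and 36.8% fell, with a median of -0.08. The 48 genes are well expressed, with a median of their mean RPKM of 63.8 against 11.7 for all genes tested, so the genes at or above their lowest mean (15.0 RPKM, 4828 genes) are the closer background: 39.7% of those rose and 29.5% fell. In both miR-294 libraries all 48 genes had higher RPKM than in either CTR library, as did 35.0% of all genes tested and 2274 of the 4828. The log2 change reached 1.5-fold in 33 of the 48, against 9.57% of all genes tested and 610 of the 4828. It reached 2-fold in 6 (Nhp2, Ddx21, Rrp9, Heatr1, Imp4 and Nop10), against 221 of the 11428 genes tested and 88 of the 4828. With siMbd2, 27 rose and 1 fell, with a median of 0.26 and a range of -0.23 to 0.70; of all genes tested 19.5% rose and 14.9% fell. At or above 15.0 RPKM, 27.3% rose and 10.7% fell with siMbd2. Both siMbd2 libraries were above both CTR libraries for 38 of the 48 genes (37.0% of all genes tested) and below them for Fbl and Pes1 (30.6% of all genes tested). Of the 4828 genes, 2266 were above in this way and 1112 below. Only Nhp2 reached 1.5-fold with siMbd2, a size seen in 3.27% of all genes tested and 147 of the 4828. The siMbd2 count fell when either siMbd2 library was left out, which leaves 1 library in that group and fewer degrees of freedom for every gene. These fits are not set beside a share of all genes here, so the loss cannot be read as particular to the 48. The change of Ncl went from 0.26 to 0.28 without siMbd2 replicate 1 and to 0.24 without siMbd2 replicate 2. That of Tsr1 went from 0.32 to 0.23 without siMbd2 replicate 2. With quantile normalization the siMbd2 changes of Ncl (0.11, adjusted p = 0.261) and Wdr43 (0.15, adjusted p = 0.156) were not called. Nor was Wdr43 called with median-of-ratios scaling (0.22, adjusted p = 0.0514) or no intensity trend (0.23, adjusted p = 0.0572). The siMbd2 rises of Ddx21, Polr1b, Polr1c, Nop10, Nhp2, Utp20, Heatr1, Imp4, Emg1, Nop2, Nop16 and Mrto4 were called under all 13 alternative settings. Those of Ncl, Noc4l, Nol6, Nolc1, Nop56, Ppan and Wdr43 were lost without siMbd2 replicate 1. Those of Bop1, Bysl, Ddx10, Ftsj3, Gar1, Ncl, Nol6, Nolc1, Nop56, Ppan, Rrp12, Tsr1, Ubtf and Wdr43 were lost without siMbd2 replicate 2. Between the treatments, 40 of the 48 genes were higher with miR-294 than with siMbd2 and none was lower (median 0.45), where 21.9% of all genes tested were higher and 35.5% lower. At or above 15.0 RPKM these shares were 29.4% and 31.4%. Both miR-294 libraries were above both siMbd2 libraries for 43 of the 48 genes (34.5% of all genes tested, 2098 of the 4828). The difference reached 1.5-fold for 13 (5.16% of all genes tested, 224 of the 4828). Calls for Emg1, Ltv1, Noc4l, Ppan and Utp20 were lost when any 1 of the 4 treated libraries was left out. Those for Ddx10, Nop2 and Rrp12 were lost without miR-294 replicate 1 or siMbd2 replicate 1, and that for Rrp12 also without miR-294 replicate 2. In 33 of the 48 the libraries ran miR-294 above siMbd2 above CTR without overlap, as in 13.5% of all genes tested. The comparisons with CTR share its 2 libraries and are not independent.

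**Figure D1:**
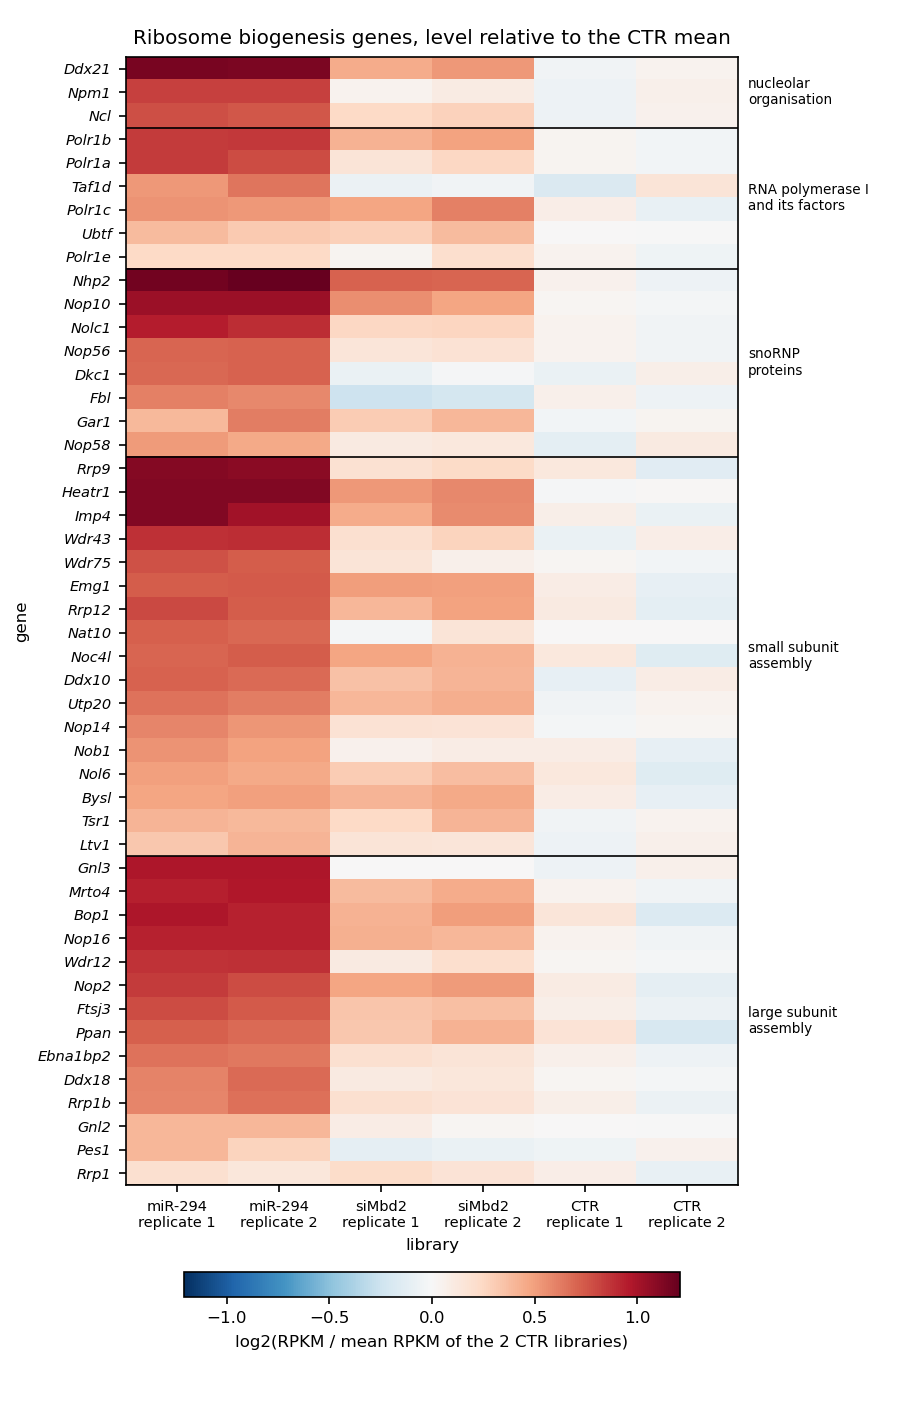
Each row is 1 of the 48 genes and each column 1 library; colour is the log2 ratio of its RPKM to the mean of the 2 CTR libraries, and horizontal lines divide the role groups. Both miR-294 columns are red in every row, most in Nhp2 (log2 change 1.18). The siMbd2 columns are paler in most rows, and both are blue for Fbl (-0.23), Pes1 (-0.09), Taf1d (-0.05) and Dkc1 (-0.04).

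The 3 genes of nucleolar organisation all rose with miR-294, by a median of 0.83. Npm1, whose protein nucleophosmin is a chaperone that forms much of the nucleolus's granular part, had the highest level of all 48 genes. Npm1 measured 2612 and 2615 RPKM with miR-294 and 1518 and 1576 with siMbd2, against 1411 and 1537 in CTR. The siMbd2 libraries overlap CTR (log2 change 0.07, 95% interval -0.08 to 0.22, adjusted p = 0.427; 0.13, adjusted p = 0.0326, without CTR replicate 2), and miR-294 lies above both groups (0.83 over CTR, adjusted p = 1.51e-05). Ddx21, an RNA helicase that acts in rRNA transcription and processing, measured 121 and 120.3 RPKM with miR-294 and 74.6 and 78.5 with siMbd2, against 53.0 and 56.3 in CTR. All 3 groups of Ddx21 are apart, with log2 changes of 1.13 for miR-294 (adjusted p = 2.88e-06) and 0.48 for siMbd2 (adjusted p = 0.00095). Ncl encodes nucleolin, an abundant RNA-binding protein of the nucleolus. It measured 1003 and 986 RPKM with miR-294 and 690.0 and 709.8 with siMbd2, against 561 and 608 in CTR, and rose by 0.77 with miR-294 and 0.26 with siMbd2.

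RNA polymerase I and its factors all rose with miR-294, 6 of 6 genes with a median of 0.56. Polr1a and Polr1b encode the largest catalytic subunits. Polr1b rose by 0.83 with miR-294 and 0.44 with siMbd2, and Polr1a by 0.79 with miR-294, its siMbd2 change being 0.20 (adjusted p = 0.0507; 0.23, adjusted p = 0.0203, without CTR replicate 1). Polr1c, a subunit shared with RNA polymerase III, measured 154 and 152 RPKM with miR-294 and 147 and 161 with siMbd2, against 112 and 99.3 in CTR. Both treatments lie above CTR and overlap each other (log2 change 0.53 with miR-294, adjusted p = 0.000295, and 0.54 with siMbd2, adjusted p = 0.00139). Ubtf encodes UBF, which binds the rDNA promoter, and gave 97.8 and 93.0 RPKM with miR-294 and 91.6 and 97.6 with siMbd2, against 75 and 74.8 in CTR. Ubtf rose by 0.34 with miR-294 and 0.33 with siMbd2, and the treatments again overlap. Taf1d, a subunit of the promoter selectivity factor, rose by 0.58 with miR-294 and had a siMbd2 change of -0.05 (interval -0.28 to 0.19). That change turned on the CTR library: Taf1d was lower with siMbd2 by -0.21 without CTR replicate 1 (adjusted p = 0.0237) and stood at 0.12 without CTR replicate 2 (adjusted p = 0.156). Polr1e, a further subunit, had the smallest called rise with miR-294, 0.23 (adjusted p = 0.0328), and that call was lost without either miR-294 replicate or without CTR replicate 2.

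The 8 snoRNP genes hold both the largest rise and the only gene called in opposite directions against CTR in the reported fit. All 8 rose with miR-294 (median 0.70); with siMbd2 5 rose and 1 fell. The box H/ACA particles, which convert uridine to pseudouridine, are built of Dkc1, Nhp2, Nop10 and Gar1. Nhp2 measured 206 and 213 RPKM with miR-294 and 151 and 150.4 with siMbd2, against 95.8 and 88.6 in CTR. Its 3 groups are apart, and it had the largest change of the 48 genes in both comparisons with CTR (1.18 with miR-294, adjusted p = 2.58e-06, and 0.70 with siMbd2, adjusted p = 0.00025). Nop10 measured 97.8 RPKM in both miR-294 libraries and 70.3 and 66.4 with siMbd2, against 48.7 and 46.9 in CTR. Nop10 rose by 1.02 with miR-294 and 0.51 with siMbd2. Dkc1, the pseudouridine synthase itself, measured 129 and 130.0 RPKM with miR-294 and 75.4 and 78.7 with siMbd2, against 75.4 and 83.6 in CTR. Dkc1 thus rose with miR-294 (0.70, adjusted p = 3.44e-05), while its siMbd2 libraries lie within the CTR range (-0.04, interval -0.19 to 0.10). Gar1 rose by 0.50 with miR-294 and by 0.35 with siMbd2.

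The box C/D particles, which carry out 2′-O-methylation of rRNA, are built on Fbl, Nop56 and Nop58. Fbl encodes fibrillarin, their methyltransferase, and measured 243 and 238 RPKM with miR-294 and 134 and 137 with siMbd2, against 166 and 152 in CTR. Both miR-294 libraries lie above CTR and both siMbd2 libraries below it. Fbl rose by 0.59 with miR-294 (adjusted p = 5.03e-05) and fell by 0.23 with siMbd2 (log2, adjusted p = 0.0199). The siMbd2 call did not hold without miR-294 replicate 1, miR-294 replicate 2, siMbd2 replicate 1 or siMbd2 replicate 2 (adjusted p of 0.0518, 0.0517, 0.138 and 0.106). Between the treatments Fbl differed by 0.82 (interval 0.68 to 0.95). Nop56 measured 462 and 463 RPKM with miR-294 and 313 and 320.2 with siMbd2, against 291 and 275 in CTR. It rose by 0.71 with miR-294, and its siMbd2 change of 0.16 had an adjusted p of 0.049, a call lost without any 1 of the 4 treated libraries, with no filter, with quantile normalization, with no intensity trend and with the replicate block. Nop58 rose by 0.49 with miR-294 (0.12 with siMbd2, adjusted p = 0.248; 0.23, adjusted p = 0.00476, without CTR replicate 2). Nolc1, a chaperone of both kinds of particle, rose by 0.91 with miR-294 and 0.25 with siMbd2.

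**Figure D2:**
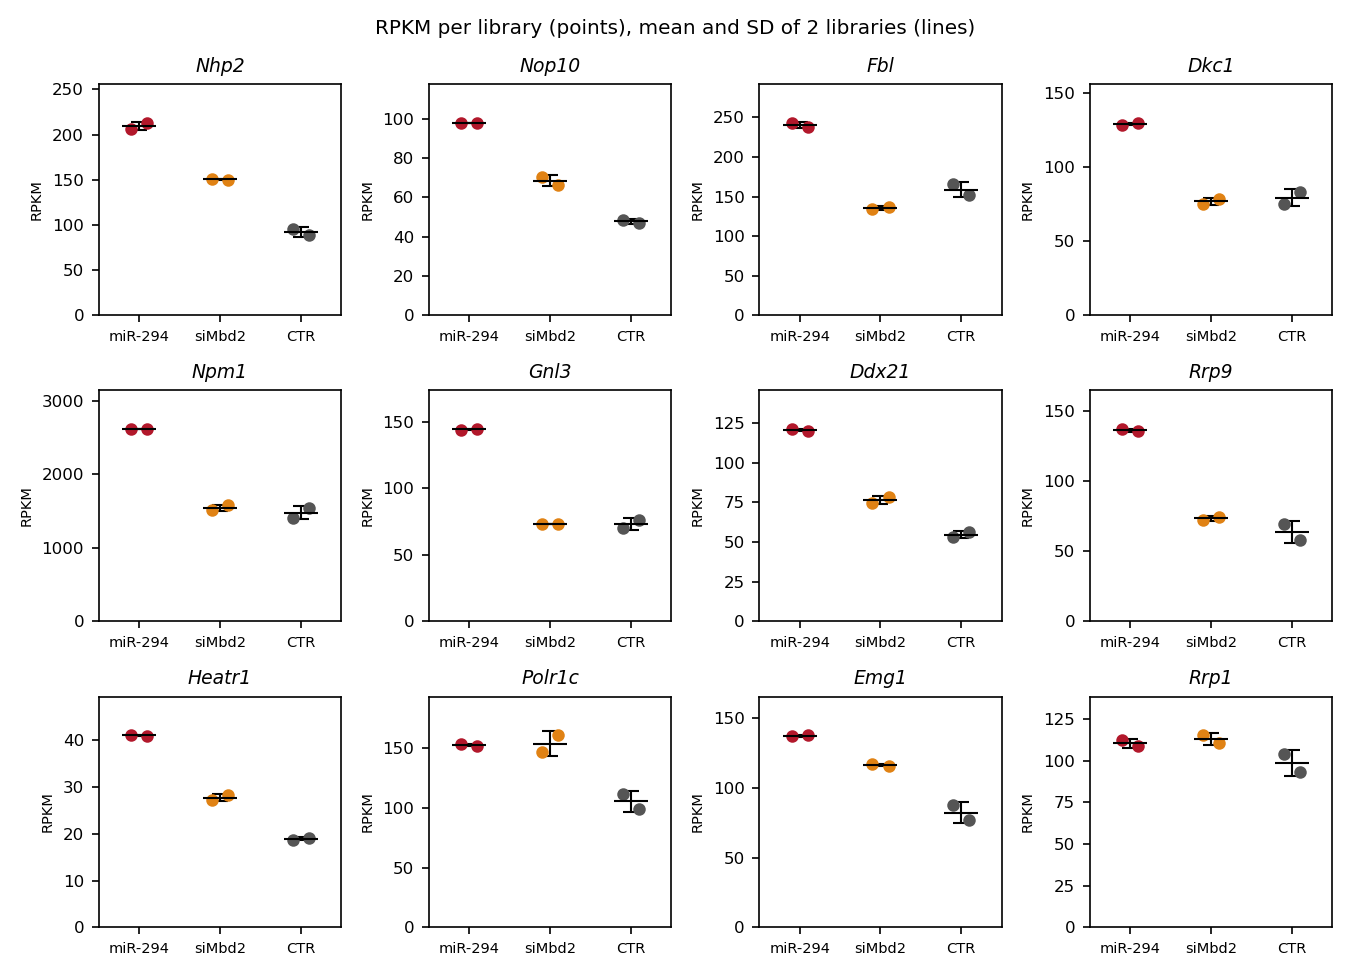
RPKM of 12 of the genes in each library (points) for miR-294, siMbd2 and CTR, with the mean and SD of 2 libraries (lines) on axes that start at 0. Nhp2, Nop10, Ddx21 and Heatr1 step down from miR-294 to siMbd2 to CTR, Fbl is lowest with siMbd2, and the siMbd2 points of Dkc1, Npm1 and Gnl3 lie near those of CTR.

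All 17 genes of small subunit assembly rose with miR-294 (median 0.69), and 11 rose with siMbd2 (median 0.34). The largest changes with miR-294 were in proteins of the early precursor particle. Rrp9, which binds the U3 snoRNA, measured 137 and 136 RPKM with miR-294 and 72.1 and 74.6 with siMbd2, against 69.4 and 58.0 in CTR. Rrp9 rose by 1.09 with miR-294 (adjusted p = 1.27e-05); its siMbd2 libraries lie above CTR by 0.21 without passing the test (adjusted p = 0.0803), and by 0.33 without CTR replicate 1 (adjusted p = 0.00115). Heatr1, a scaffold needed for rRNA transcription as well as processing, measured 41.1 and 40.9 RPKM with miR-294 and 27.2 and 28.2 with siMbd2, against 18.7 and 19.1 in CTR. Imp4, a U3 particle protein, measured 83.9 and 77.7 RPKM with miR-294 and 52.6 and 57.3 with siMbd2, against 40.7 and 36.5 in CTR. The groups are apart for both genes. Heatr1 rose by 1.08 with miR-294 and 0.53 with siMbd2, and Imp4 by 1.05 with miR-294 and 0.50 with siMbd2. Emg1, an rRNA methyltransferase and the gene of this group with the highest mean, measured 137 and 138 RPKM with miR-294 and 117 and 116 with siMbd2, against 87.7 and 77.2 in CTR. It rose by 0.74 with miR-294 and 0.50 with siMbd2.

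Wdr43 and Wdr75, which belong with Heatr1 to the subcomplex that joins the precursor first, rose by 0.88 and 0.75 with miR-294; with siMbd2 Wdr43 rose by 0.23 and Wdr75 had a change of 0.11 (adjusted p = 0.183). The partners Nop14 and Noc4l rose by 0.55 and 0.69, the helicase Ddx10 by 0.68, Utp20 by 0.61, Nol6 by 0.47 and Nat10, an rRNA cytidine acetyltransferase, by 0.69. Of these Noc4l, Ddx10, Utp20 and Nol6 rose with siMbd2 too, by 0.34 to 0.43, while Nat10 (0.06) and Nop14 (0.16) did not pass; Nop14 passed without CTR replicate 2 (0.19, adjusted p = 0.022). Of the late factors, which act on the nearly finished subunit, Ltv1 rose by 0.36 with miR-294, Tsr1 by 0.39, Bysl by 0.46 and Nob1, the endonuclease of the last cut, by 0.51. Rrp12, an export factor, rose by 0.73 with miR-294 and 0.43 with siMbd2. Tsr1 and Bysl rose with siMbd2 as well (0.32 and 0.42), Nob1 (0.07) and Ltv1 (0.15) did not pass. Nob1 passed without CTR replicate 1 (0.17, adjusted p = 0.0243) and Ltv1 without CTR replicate 2 (0.20, adjusted p = 0.0206).

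Of the 14 genes of large subunit assembly 13 rose with miR-294 (median 0.73) and 6 with siMbd2 (median 0.19). Gnl3, the GTPase nucleostemin known from stem cells, measured 144 and 145 RPKM with miR-294 and 73.5 and 73.4 with siMbd2, against 70.4 and 76.3 in CTR. The siMbd2 libraries lie inside the CTR range (change 0.00, interval -0.13 to 0.14), and the miR-294 libraries lie above either group by 0.97. Pes1, Bop1 and Wdr12 form 1 complex, PeBoW, but their changes differed in size. Bop1 rose by 0.93 with miR-294 and 0.45 with siMbd2. Wdr12 rose by 0.86 with miR-294 (0.15 with siMbd2, adjusted p = 0.092; 0.18, adjusted p = 0.0346, without CTR replicate 1). Pes1 measured 127 and 116 RPKM with miR-294 and 89.4 and 91.2 with siMbd2, against 92.9 and 99.7 in CTR, so that both siMbd2 libraries lie below both CTR libraries without passing the test (-0.09, adjusted p = 0.308). The 0.33 rise of Pes1 with miR-294 was not called with quantile normalization.

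Among the other large subunit factors Mrto4 rose by 0.94 with miR-294, Nop16 by 0.91, the rRNA methyltransferase Nop2 by 0.81, Ftsj3 by 0.76 and Ppan by 0.71. With siMbd2 the same genes rose by 0.41 for Mrto4, 0.40 for Nop16, 0.49 for Nop2, 0.35 for Ftsj3 and 0.38 for Ppan. Ebna1bp2 (0.65), the helicase Ddx18 (0.63), Rrp1b (0.61) and the GTPase Gnl2 (0.40) rose with miR-294, and their siMbd2 changes of 0.06 to 0.18 did not pass. Without CTR replicate 1, Ebna1bp2 (0.24, adjusted p = 0.00348) and Rrp1b (0.25, adjusted p = 0.00786) passed with siMbd2. Rrp1 was the single gene that passed in no comparison, although its mean is the highest of this group. Rrp1 measured 112 and 109 RPKM with miR-294 and 115 and 110.4 with siMbd2, against 104 and 93.0 in CTR. All 4 treated libraries lie above CTR, by 0.16 with miR-294 (interval 0.01 to 0.32, adjusted p = 0.0595) and 0.19 with siMbd2 (interval 0.04 to 0.35, adjusted p = 0.054). Without CTR replicate 1, Rrp1 passed in both comparisons (0.25 with miR-294, adjusted p = 0.00258, and 0.28 with siMbd2, adjusted p = 0.00328).

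**Figure D3:**
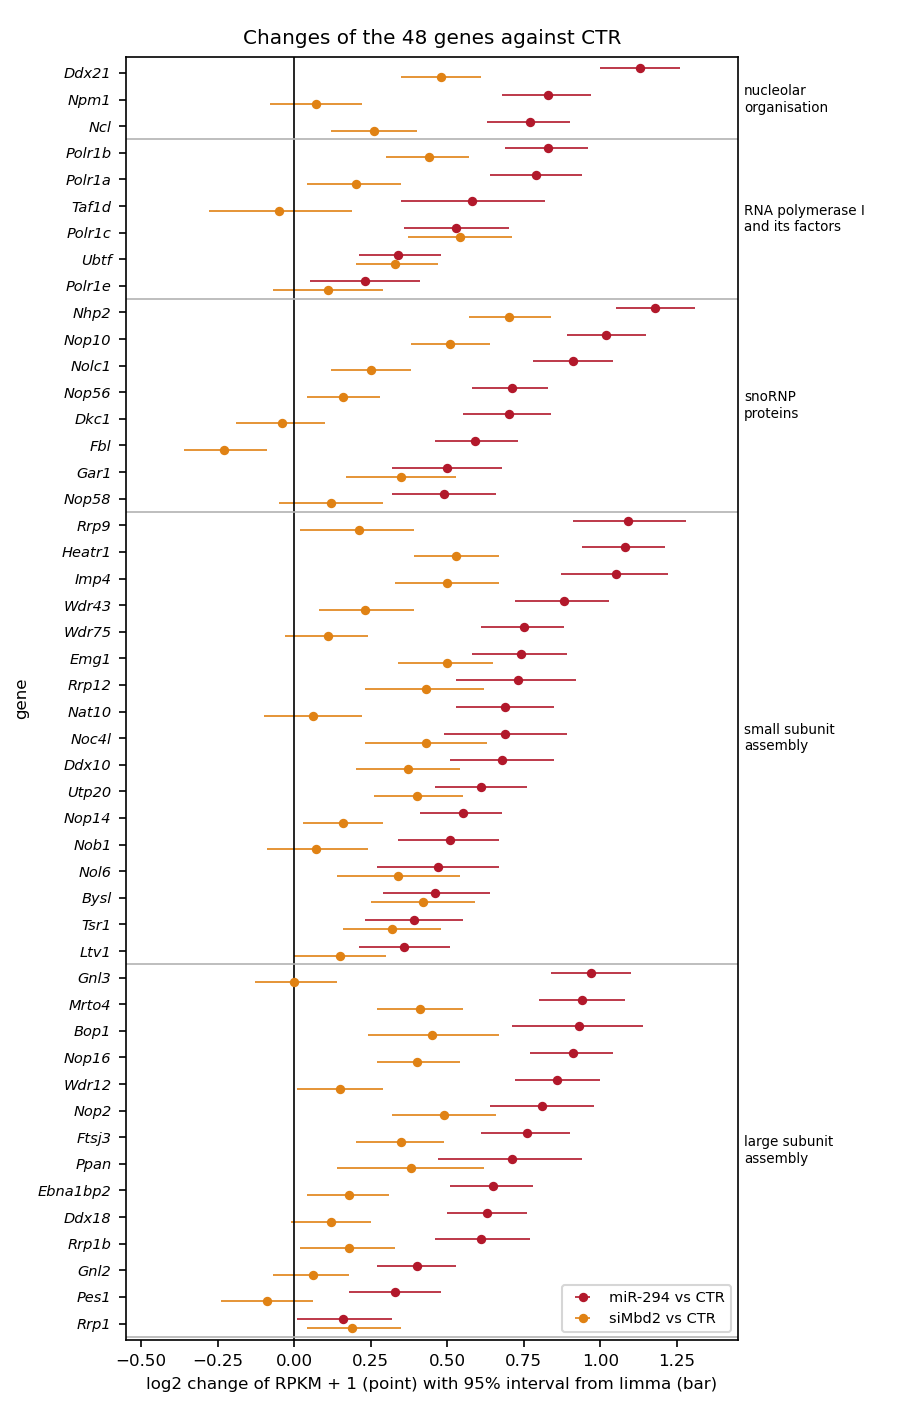
Log2 change of each gene for miR-294 (dark red) and siMbd2 (orange) against CTR with 95% intervals from limma, by role group. Intervals of the 2 treatments lie apart for genes such as Gnl3 (0.97 for miR-294, 0.00 for siMbd2) and Fbl (0.59 for miR-294, -0.23 for siMbd2), and overlap for Polr1c (0.53 for miR-294, 0.54 for siMbd2).

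Set directly against each other, the treatments differed for 40 of the 48 genes. The largest differences were in Gnl3 (0.97, adjusted p = 8.59e-06), Rrp9 (0.89), Fbl (0.82), Npm1 (0.76) and Dkc1 (0.74), all higher with miR-294. No difference passed for Polr1c (-0.01, 95% interval -0.18 to 0.16), Ubtf (0.01, -0.12 to 0.15), Rrp1 (-0.03, -0.18 to 0.12), Bysl (0.05, -0.12 to 0.22), Tsr1 (0.08, -0.08 to 0.23), Polr1e (0.12, -0.07 to 0.30), Nol6 (0.13, -0.07 to 0.33) and Gar1 (0.15, -0.03 to 0.33). These intervals leave room for differences of up to 0.33 on the log2 scale. With quantile normalization Polr1e (0.27, adjusted p = 0.018) and Rrp1 (-0.16, adjusted p = 0.0495) passed. With median-of-ratios scaling Gar1 (0.23, adjusted p = 0.0425) and Nol6 (0.21, adjusted p = 0.0419) passed. Gar1 was also called without miR-294 replicate 1 (0.26) and Nol6 without either CTR replicate (0.13). By call, 21 genes rose in both treatments and were higher with miR-294 than with siMbd2, as did 5.14% of all genes tested. A further 6 (6.09% of all genes tested) rose in both without a called difference between them, and 18 (11.2% of all genes tested) rose with miR-294, did not pass with siMbd2 and were higher than with siMbd2. Fbl, Polr1e and Rrp1 make up the rest. The treatments differed for 3 of 6 RNA polymerase I genes and 13 of 14 large subunit genes, and that contrast between role groups was not tested.

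**Figure D4:**
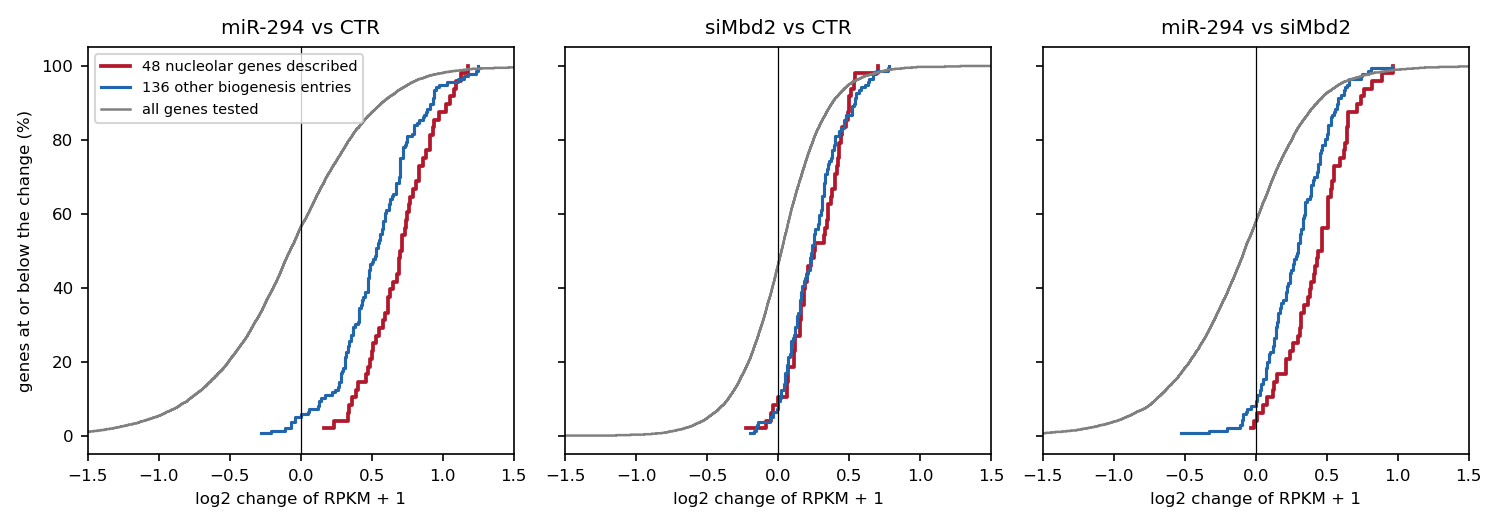
Cumulative percentage of genes at or below each log2 change for the 48 genes, 136 entries of other ribosome biogenesis genes and all 11428 genes tested, in miR-294 against CTR, siMbd2 against CTR and miR-294 against siMbd2. Both biogenesis curves lie right of the grey curve of all genes, most with miR-294 against CTR (median 0.70 for the 48 genes and 0.53 for the other entries, against -0.08 for all genes).

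Other genes of the same pathway were read off the same fit from a list of 138 further factors, of which 135 were found, in 136 entries. With miR-294 120 of the 136 rose (88.2%) and 2 fell (median 0.53), and with siMbd2 72 rose and 1 fell (median 0.24). Of the 11 entries for RNA polymerase I and its factors, 6 rose (54.5%) and 1 fell with miR-294 (median 0.28), against 27.7% of all genes tested that rose. With siMbd2 2 of these 11 rose (18.2%), against 19.5% of all genes tested. Fewer of the 136 entries rose with siMbd2 when either siMbd2 library was left out, in fits that leave 1 library in that group. Between treatments 82 were higher with miR-294 and 3 lower. The largest rises with miR-294 were in Nle1 (1.25), Nip7 (1.25), both large subunit factors, and Znhit3 (1.23), which helps assemble box C/D particles. Nle1 measured 18.5 and 18.9 RPKM with miR-294 and 9.0 and 9.2 with siMbd2, against 7.35 and 7.19 in CTR. Nip7 had the largest siMbd2 rise too (0.78), followed by Rrp7a (0.77) and 1 of the 2 entries of Rpp14 (0.69; the other 0.18, adjusted p = 0.113). The genes that fell with miR-294 were Taf1b (-0.28), a subunit of the same factor as Taf1d, and the exonuclease gene Xrn2 (-0.21). Gnl3l, a relative of Gnl3, fell by 0.20 with siMbd2 (log2). Krr1 (0.81) and the exosome gene Exosc2 (0.79) stood with Nle1 (0.96) among the largest differences in favour of miR-294. The RNase P and exosome genes Pop7 (-0.53), Exosc4 (-0.33) and Rpp25 (-0.20) were lower with miR-294 than with siMbd2. Pop7 measured 13.5 and 14 RPKM with miR-294 and 21.7 and 19.1 with siMbd2, against 15.7 and 13.4 in CTR.

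Promoters were searched for CACGTG, a palindromic E-box that MYC binds, in RefSeq windows (GRCm38.p6) from 250 bases before to 50 after each start. Of the 48 genes 42 have a window, and 7 of them hold the motif (16.7%), as do 18.3% of the 115 other biogenesis genes with a window and 12.2% of the 8657 tested genes with one. The motif lies before the start in Imp4 and Nop2, shown in the gene's direction with CACGTG in capitals.
Imp4 (chr1:34439696-34439725, plus strand): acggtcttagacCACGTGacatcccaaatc
Nop2 (chr6:125131811-125131840, plus strand): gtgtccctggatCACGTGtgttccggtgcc
Ltv1, Utp20, Pes1, Tsr1 and Wdr43 hold it after the start. With miR-294 the 7 genes had a median log2 change of 0.61 and the 35 without the motif 0.71. With siMbd2 these medians were 0.32 for the 7 and 0.25 for the 35.

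Exons of 19 of the 48 genes overlap those of another gene, in each case on the opposite strand (20 partners, GENCODE vM21). Whether the reads were counted by strand is not stated, so reads of such pairs cannot be told apart. Partners of 13 of the 19 are in the table, and only Ccnd3, which overlaps Bysl, had a higher mean than its partner. Ccnd3 averaged 158 RPKM with miR-294 and 175 with siMbd2, against 135 in CTR. Nhp2 overlaps Rmnd5b, which averaged 30.5 RPKM with miR-294 and 41.7 with siMbd2, against 27.9 in CTR. The part of the partners in these changes was not tested.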

How the data were processed

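mRNA was measured by paired-end Illumina sequencing of Trizol total RNA in 6 libraries, each described in the labels as an average of 2 lanes. The deposited table gives 1 RPKM per gene and library to 2 decimals, normalised by the authors to transcript length and mapped reads, per the file headers. The submitters' processing notes name CASAVA 1.7, STAR 2.3.0, Cufflinks and mm10, without roles. The authors' deposited fold columns are ratios of mean RPKM to CTR, and recomputed ratios lay within 0.00502 of them for the 48 genes. The authors' gene annotation was not given in the sources used here.

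Values were analysed as log2(RPKM + 1). One limma 3.58.1 model (R 4.3.3) with an intensity trend was fitted over 3 groups (3 residual and 5.378 prior degrees of freedom), two-sided, and p-values were adjusted by Benjamini-Hochberg over 11428 genes per comparison at 0.05. This scale understates changes of low genes. The fit was tested on simulated data. The 48 genes, the list of other biogenesis genes, the role groups and the tests were chosen with earlier results of these data known. Genes given with every library's value were the 5 largest called changes per direction and comparison, the highest mean per role group and genes with opposite calls; Ncl, Ubtf and Pes1 were added after their values were seen. Of the other list, the 3 largest per direction were named. Plots and sequence searches used Python 3.11.15, pandas 2.3.3, numpy 2.4.6 and matplotlib 3.10.9. In all, 13 alternative settings were run. Riok2, Urb2 and Exosc6 were not found under the symbols used and were not analysed here. Part of the 3′ UTR match sequences is not reported here.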

Additional observations from a re-analysis of the deposited data

How the results depend on the processing

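With only 2 libraries a group and unknown depth, calls rest on the shared estimate of spread. Of the calls among the 48 genes, 45 for miR-294 against CTR, 12 for siMbd2 against CTR and 31 for miR-294 against siMbd2 held in the reported fit and all 13 alternatives. Counts of calls under the alternatives are not set beside shares of all genes here. They cannot be read as particular to the 48 genes or to the other biogenesis genes. The median log2 change of the 48 genes was 0.77 for miR-294 against CTR with median-of-ratios scaling and 0.55 after quantile normalization, 0.16 for siMbd2 against CTR with quantile normalization, and for miR-294 against siMbd2 0.53 (median-of-ratios scaling) and 0.39 (quantile normalization). With single libraries left out, siMbd2 against CTR gave 13 to 34 of the 48 genes higher and 0 to 2 lower, and 27 to 85 other biogenesis genes higher and 0 to 4 lower. Other biogenesis genes lower with miR-294 than CTR numbered 1 with median-of-ratios scaling, quantile normalization or no intensity trend, and 0 to 2 with single libraries left out; lower with siMbd2 than CTR they numbered 2 with quantile normalization and 0 with no intensity trend; lower with miR-294 than siMbd2 they numbered 1 to 3 with single libraries left out. With quantile normalization 1 of the 48, Rrp1, was called lower with miR-294 than siMbd2. Sign changes among the 48 genes numbered 1 for miR-294 against CTR (Rrp1), 11 in 7 genes for siMbd2 against CTR (Dkc1, Gnl2, Gnl3, Nat10, Nob1, Npm1 and Taf1d) and 8 in 4 genes between treatments (Polr1c, Rrp1, Tsr1 and Ubtf), none of them in a gene called as reported. Of the genes named by rule, signs turned with quantile normalization for Rrp1 (miR-294 against CTR, -0.04), Npm1 (siMbd2 against CTR, -0.08) and Gnl3 (siMbd2 against CTR, -0.09). For siMbd2 against CTR, Gnl3 also turned with median-of-ratios scaling (-0.01) and without CTR replicate 1 (-0.05), and Dkc1 without CTR replicate 2 (0.03). Between treatments signs turned for Polr1c (0.07) and Rrp1 (0.05) with median-of-ratios scaling, and for Polr1c (0.06) without siMbd2 replicate 2. With single libraries left out, Rrp1 between treatments ranged from -0.06 to 0.00. Of all calls in miR-294 against siMbd2, 38.1% were higher as reported, 47.7% with median-of-ratios scaling and 50.9% after quantile normalization, which moved the all-gene median from -0.08 to 0.02. The cause of these shifts was not tested. Deviations of same-numbered libraries from their group means were only weakly correlated over all genes tested. The correlations were 0.119 for miR-294 and CTR, 0.132 for siMbd2 and CTR and 0.0218 for miR-294 and siMbd2. The numbers were therefore not taken as pairs. With the replicate block 48 of the 48 genes rose with miR-294, 28 rose and 1 fell with siMbd2, and 40 differed between treatments.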
